A study of Mus musculus with 12 samples.

Results

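The genes described here are 36 mouse genes of glycolysis and of the transcriptional response to low oxygen, chosen by symbol: 23 code for glucose and lactate transporters and glycolytic enzymes with their regulators, and 13 for hypoxia-inducible factors, the hydroxylases that control them and target genes. For each gene the brightest probe set carrying only its symbol was used, which gave values for 34 of the 36 genes, and 32 of these were among the 14217 genes tested of 19937 measured. Gpi1 and Eno1 had no probe set annotated with their symbol alone and were not analysed here. Pfkfb4 and Eno2 stayed under the 40th percentile of the array on all but 2 and 1 of the 12 arrays and were not tested. Another 6 genes were tested but fell under that percentile on 1 or more arrays: Slc2a3, Aldoc and Pdk1 were above it on 11 arrays, Slc16a1 on 8, Car9 on 7 and Egln3 on 5. At such levels an array can understate a difference.

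RNA came from cells sorted out of the long bones of female C57BL/6 mice. Tumor-bearing mice had received 500000 EO771 cells, a mammary carcinoma line of the same strain, by injection into the heart, and the cells grew in the bones for about 2 weeks. Tumor-free mice were the controls, and the labels give neither the animals' age nor whether these mice received an injection of vehicle. Both gates excluded GFP-positive, TR119-positive and CD45-positive cells: osteoblasts were then taken as SCA1-negative, CD31-negative and CD51-positive, and endothelial cells as SCA1-positive and CD31-positive. The 2 cell types from tumor-bearing and tumor-free mice made 4 groups, each with 3 Affymetrix Mouse Gene 1.0 ST arrays labelled as biological replicates. Whether osteoblasts and endothelial cells of 1 number came from the same mice, and whether mice were pooled, is not given in the sources used here.

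Glycolysis splits glucose into pyruvate and yields ATP without oxygen, and lactate dehydrogenase turns the pyruvate into lactate so that the pathway can go on. When oxygen is short, prolyl hydroxylases no longer mark the HIF alpha subunits for destruction. The subunits then pair with the Arnt protein and switch on glucose transporters, most glycolytic enzymes and genes that restrain mitochondrial use of pyruvate. HIF alpha protein is controlled mainly by its stability, so the mRNA of its gene is not a measure of its activity. Bone marrow is a poorly oxygenated tissue, and both osteoblasts and growing endothelium are known to rely strongly on glycolysis.

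The arrays had medians of 5.95 to 6.04 on the log2 scale, and arrays of 1 group correlated at 0.912 to 0.955 over all probe sets. Of the 9 osteoblast markers tested, all had higher means in osteoblasts in both states, and 9 passed in tumor-free and 8 in tumor-bearing mice. All 11 endothelial markers tested passed as lower in both. These lists include Itgav and Pecam1, which code for CD51 and CD31, antigens that the gates used, so these genes are not independent of the sort. Runx2, Bglap, Spp1 and Ly6a were not analysed here. The osteoblast gate also held cartilage transcripts: 10 of 14 chondrocyte markers tested passed as higher than in endothelial cells in tumor-free and 11 of 14 in tumor-bearing mice, and the list's median was 8.20, 10.17 and 8.15 in the tumor-free and 9.75, 10.04 and 7.95 in the tumor-bearing osteoblast arrays against 6.31 to 6.81 in endothelial arrays. In sorted bulk RNA, more cells of a type and more RNA per cell cannot be told apart.

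Calls in these genes came from the cell types and none from the presence of tumor, and most of the genes that passed were lower in osteoblasts. In tumor-free mice, 7 of the 32 genes passed the test between osteoblasts and endothelial cells (limma, Benjamini-Hochberg adjusted over all 14217 genes), where 12.4% of all genes did: Epas1, Hif1a, Pdk1, Ndrg1 and Kdm3a were lower in osteoblasts (5 genes, against 7% of all genes) and Tpi1 and Ldhb higher (2 genes, against 5.38%). In tumor-bearing mice 2 genes passed, Epas1 and Ndrg1, both lower in osteoblasts, where 10.6% of all genes passed, 5.68% lower and 4.89% higher. The median difference over the 32 genes was -0.04 in tumor-free and -0.02 in tumor-bearing mice, beside -0.01 and -0.03 over all genes. Of the 13 hypoxia genes 10 had a negative value in tumor-free and 9 in tumor-bearing mice. Of a further 27 hypoxia response genes, described below, 20 and 19 had a positive value. Of the 19 glycolysis genes tested 12 and 11 had a positive one, where 49.1% and 44.4% of all genes did.

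Epas1, which codes for the HIF alpha subunit prominent in endothelium, had the smallest adjusted p of the 32 genes in both states. Its log2 values were 10.01, 9.27 and 9.47 in osteoblasts of tumor-free mice and 8.89, 8.98 and 9.29 in those of tumor-bearing mice, against 10.61, 10.68 and 10.68 in tumor-free endothelial cells and 10.83, 10.99 and 10.65 in tumor-bearing ones. All 6 osteoblast arrays lay under all 6 endothelial arrays. The difference, osteoblasts minus endothelial cells, was -1.07 (95% confidence interval -1.48 to -0.66, limma adjusted p = 0.00321) in tumor-free mice and -1.77 (-2.18 to -1.36, adjusted p = 0.000127) in tumor-bearing mice.

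Ndrg1, a stress-response gene induced by low oxygen, was the other gene lower in osteoblasts in both states. In tumor-free mice it read 7.64, 7.05 and 6.48 in osteoblasts and 8.73, 8.59 and 8.72 in endothelial cells. With tumor it read 6.86, 7.24 and 7.09 in osteoblasts and 8.86, 9.08 and 8.0 in endothelial cells. Again no osteoblast array reached an endothelial one, and the endothelial array nearest to them was replicate 3 of the tumor-bearing mice. The differences were -1.62 (adjusted p = 0.00603) and -1.58 (adjusted p = 0.008). Epas1 and Ndrg1 passed in both states under every alternative setting tried.

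**Figure D1:**
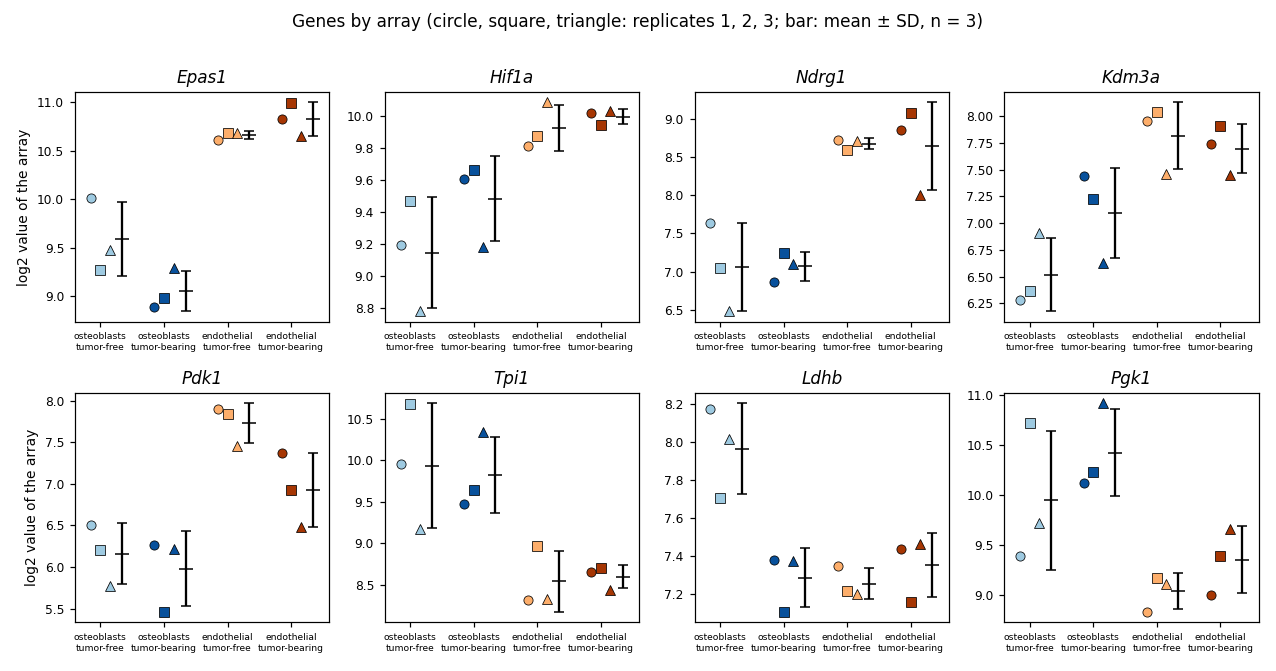
Log2 values of 8 genes on every array (points; circle, square and triangle are replicates 1, 2 and 3) with the mean ± SD of each group (bars, n = 3). Epas1, Hif1a, Ndrg1, Kdm3a and Pdk1 sit higher in endothelial cells and Tpi1 and Pgk1 higher in osteoblasts, while Ldhb stands out only in osteoblasts of tumor-free mice.

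Hif1a codes for the other main HIF alpha subunit. Its log2 values were 9.19, 9.47 and 8.78 in tumor-free osteoblasts, 9.61, 9.66 and 9.18 in tumor-bearing osteoblasts, 9.81, 9.87 and 10.08 in tumor-free endothelial cells and 10.02, 9.94 and 10.03 in tumor-bearing endothelial cells. The cell types did not overlap in either state. The difference passed in tumor-free mice, at -0.78 (adjusted p = 0.0177), and was -0.51 (adjusted p = 0.113) in tumor-bearing mice. It did not pass in tumor-free mice without endothelial replicate 3 of that group (adjusted p = 0.0698) or when only these 2 groups were fitted (0.059), over a range of 0.00805 to 0.0698 across the alternatives. Arnt, the shared partner of both alpha subunits, differed by -0.06 and -0.07, and neither value passed.

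Pdk1 codes for a kinase that restrains mitochondrial use of pyruvate by inactivating pyruvate dehydrogenase. It read 6.50, 6.20 and 5.77 in tumor-free osteoblasts and 7.90, 7.84 and 7.46 in tumor-free endothelial cells. The osteoblast values lie near the array median and all are under the endothelial ones, with a difference of -1.57 (adjusted p = 0.00442). In tumor-bearing mice the values were 6.26, 5.46 and 6.22 in osteoblasts and 7.37, 6.93 and 6.48 in endothelial cells. These too did not overlap, and the difference of -0.95 had an adjusted p of 0.0637. Kdm3a, a histone demethylase gene induced by HIF, read 6.28, 6.36 and 6.91 in osteoblasts and 7.96, 8.04 and 7.46 in endothelial cells of tumor-free mice, and the difference of -1.30 passed (adjusted p = 0.00606). In tumor-bearing mice Kdm3a read 7.44, 7.23 and 6.63 in osteoblasts and 7.74, 7.91 and 7.45 in endothelial cells, and the difference of -0.60 did not pass (adjusted p = 0.181).

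Of the genes higher in osteoblasts, Tpi1 had the larger difference. Tpi1, the isomerase that interconverts the triose phosphates, read 9.95, 10.68 and 9.18 in tumor-free osteoblasts and 8.33, 8.97 and 8.34 in tumor-free endothelial cells, with no overlap and a difference of 1.39 (adjusted p = 0.0263). The values in tumor-bearing mice were 9.48, 9.65 and 10.34 in osteoblasts and 8.66, 8.70 and 8.45 in endothelial cells, again without overlap, for a difference of 1.22 (adjusted p = 0.0535). The call in tumor-free mice is not stable: without osteoblast replicate 1 or 2 or endothelial replicate 1 or 3 of those mice the adjusted p was 0.0667, 0.0723, 0.096 and 0.0921, with only these 2 groups fitted it was 0.0844, and the range over all alternatives was 0.00248 to 0.096.

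Pgk1, the kinase of the first ATP-yielding step, read 9.39, 10.72 and 9.72 in osteoblasts and 8.83, 9.17 and 9.11 in endothelial cells without tumor. With tumor it read 10.12, 10.23 and 10.92 in osteoblasts and 9.0, 9.39 and 9.66 in endothelial cells. All osteoblast arrays of each state lay above the endothelial arrays of that state, yet the differences of 0.91 and 1.07 did not pass (adjusted p = 0.116 and 0.0701), and the tumor-free osteoblast arrays were themselves more than 1 log2 unit apart. In tumor-bearing mice the other enzymes in this position were Aldoa, an aldolase, at 0.46 (adjusted p = 0.0732), Pgam1, phosphoglycerate mutase, at 0.64 (0.0891), Hk2, the inducible hexokinase, at 1.57 (0.0644) and Ldha, a lactate dehydrogenase subunit, at 0.59 (0.136). None of these passed.

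Of the 32 genes, the number whose 3 osteoblast arrays did not overlap the 3 endothelial arrays was 11 without tumor, beside 29.4% of all genes. Of these, 6 lay above and 5 below the endothelial arrays, beside 13.6% and 15.8% of all genes. With tumor the number was 17, beside 28.1% of all genes, with 8 above and 9 below, beside 12.1% and 16%. The count that passed in tumor-bearing mice was the less settled of these numbers: it was 2 with all arrays and 4 without osteoblast replicate 1 of the tumor-free mice, and 6 without replicate 2 of that group, when Hk2, Pgam1, Pgk1 and Tpi1 were added. Neither of those arrays enters the contrast other than through the shared estimate of the spread.

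**Figure D2:**
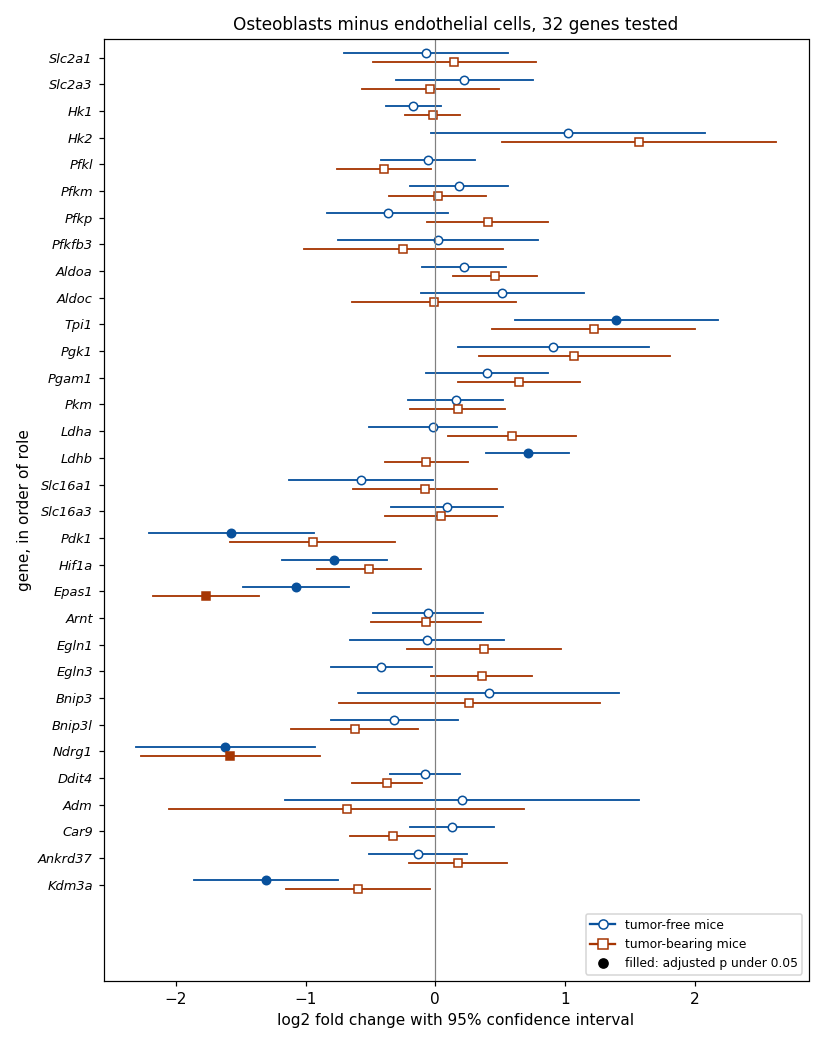
Log2 fold change, osteoblasts minus endothelial cells, of the 32 genes tested (horizontal axis) with its 95% confidence interval, in tumor-free mice (circles) and tumor-bearing mice (squares). Filled symbols passed an adjusted p of 0.05: 7 genes in tumor-free and 2 in tumor-bearing mice.

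Values for both states run side by side in that plot, and the 2 comparisons use different arrays on both sides. Neither glucose transporter gene passed: Slc2a1, the main glucose transporter, differed by -0.07 and 0.15, and Slc2a3 by 0.22 and -0.04. The phosphofructokinase genes Pfkl, Pfkm and Pfkp and the regulator gene Pfkfb3 had differences of -0.37 to 0.18 in tumor-free and -0.40 to 0.40 in tumor-bearing mice, none past the test. The monocarboxylate transporter genes Slc16a1 and Slc16a3, whose products carry lactate across the membrane, differed by -0.57 and 0.09 in tumor-free mice and by -0.08 and 0.04 in tumor-bearing mice. The mitophagy receptor gene Bnip3l had differences of -0.31 and -0.62, the vasodilator peptide gene Adm of 0.21 and -0.68, and Ddit4, coding for an inhibitor of the growth kinase complex mTORC, of -0.08 and -0.37, all short of the test.

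A caution applies to Hk1, the housekeeping hexokinase. The probe set that the rule selects read 11.79 to 12.15 on every array and carries no RefSeq transcript, while 15 other probe sets name Hk1 together with the ribosomal protein gene Rpl17. The Hk1 probe set annotated with RefSeq transcripts read 6.85 to 7.51, and its differences between cell types were -0.24 and -0.09. Both probe sets leave Hk1 without a call. For Bnip3, another mitophagy receptor gene, the probe set used differed by 0.26 between the cell types in tumor-bearing mice and the second by 1.28, and between osteoblasts with and without tumor they gave 0.17 and 0.89, so the size for that gene depends on the probe set.

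Regulatory sequence near the start of these genes was examined for the core of the hypoxia response element, ACGTG or GCGTG on either strand, which HIF dimers are known to bind. RefSeq promoters of assembly GRCm38.p6, running from 250 bases before to 50 after the start of transcription, were held for 32 of the 36 genes, not for Bnip3l, Slc2a3, Ndrg1 and Epas1, and numbered 47. One of these motifs was present in 37 of 47 (78.7%), beside 43.8% of 32851 promoters of all genes. Counted by gene, 29 of 32 had it in at least 1 promoter (90.6%), beside 46.7% of 27025 genes. Base composition was not matched, and a match is not evidence of binding. The promoters below are shown because they contrast in this motif, and were picked after the values were seen: Ldha at chr7:46845554-46845853 on the plus strand holds 7 matches, of which 2 pairs overlap on opposite strands, Pgk1 at chrX:106186850-106187149 on the plus strand holds 2 of ACGTG, Pdk1 at chr2:71872974-71873273 on the plus strand holds 2 of GCGTG and Tpi1 at chr6:124814109-124814408 on the minus strand holds none. Capitals mark the matches.
Ldha: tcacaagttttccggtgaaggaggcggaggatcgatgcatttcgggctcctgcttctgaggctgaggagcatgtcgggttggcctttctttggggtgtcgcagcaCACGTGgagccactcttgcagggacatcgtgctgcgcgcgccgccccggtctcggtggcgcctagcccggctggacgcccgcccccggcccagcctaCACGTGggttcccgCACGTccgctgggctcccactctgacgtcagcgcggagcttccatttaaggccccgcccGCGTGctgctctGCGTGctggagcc
Pgk1: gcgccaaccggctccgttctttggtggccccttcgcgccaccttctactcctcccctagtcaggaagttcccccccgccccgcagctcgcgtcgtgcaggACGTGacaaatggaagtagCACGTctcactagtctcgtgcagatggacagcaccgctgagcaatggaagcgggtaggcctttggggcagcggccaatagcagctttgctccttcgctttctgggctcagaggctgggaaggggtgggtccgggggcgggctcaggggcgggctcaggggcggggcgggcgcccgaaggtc
Pdk1: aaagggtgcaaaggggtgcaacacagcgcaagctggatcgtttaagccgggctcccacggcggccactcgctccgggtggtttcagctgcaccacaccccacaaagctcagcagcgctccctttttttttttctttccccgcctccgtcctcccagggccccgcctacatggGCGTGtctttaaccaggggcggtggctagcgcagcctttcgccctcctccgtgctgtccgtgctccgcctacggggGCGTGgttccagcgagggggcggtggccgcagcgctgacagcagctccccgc
Tpi1: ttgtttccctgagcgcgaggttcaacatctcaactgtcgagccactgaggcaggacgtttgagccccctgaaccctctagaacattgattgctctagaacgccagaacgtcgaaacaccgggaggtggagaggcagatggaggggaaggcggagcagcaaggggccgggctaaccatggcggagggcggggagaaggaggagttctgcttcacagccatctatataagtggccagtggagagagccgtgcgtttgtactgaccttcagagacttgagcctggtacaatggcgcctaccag

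Between tumor-bearing and tumor-free mice, no gene of the 32 passed in osteoblasts (limma, adjusted p), where 0.0563% of all genes did. At an unadjusted p under 0.05 there were 7, 4 higher and 3 lower, beside 9.78% of all genes. The median change was 0.13 beside -0.02 over all genes, and 20 of 32 values were positive, beside 46.7% of all genes. Groups did not overlap for 6 genes, Ldha, Pfkp, Egln3 and Aldoa above and Ldhb and Car9 below, beside 14.5% of all genes, 6.18% above and 8.36% below.

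Ldhb, whose subunit is known for favouring the use of lactate, had the smallest p. It read 8.18, 7.70 and 8.01 in tumor-free osteoblasts and 7.37, 7.10 and 7.37 in tumor-bearing osteoblasts. The tumor-free arrays lay above every other array of the study, including the endothelial arrays without tumor (7.35, 7.22 and 7.20) and with tumor (7.44, 7.16 and 7.46). The difference, tumor-bearing minus tumor-free, was -0.68 (-1.0 to -0.36, adjusted p = 0.178). The difference between the cell types without tumor, which uses the same tumor-free osteoblast arrays, was 0.71 and passed (adjusted p = 0.00807), but not when the 2 Ldhb probe sets were averaged (0.52, adjusted p = 0.0749, range over the alternatives 0.00329 to 0.0749). The second probe set alone gave -0.28 for the tumor difference and 0.33 for the cell types. Erythroid markers differed in the same directions as Ldhb: all 5 tested had lower means in osteoblasts with tumor (median -0.52, 0 passed, 3 without overlap), and all 5 had higher means than endothelial cells without tumor, of which 2 passed, against 0 with tumor. Their median level was 6.48, 6.43 and 6.53 in tumor-free and 6.19, 6.08 and 5.74 in tumor-bearing osteoblasts, and 5.90 to 6.18 in endothelial arrays. Of 9 neutrophil markers tested, 8 had lower means in osteoblasts with tumor (median -1.03, 0 passed), and the list's median level was 6.65, 7.12 and 8.60 without and 6.78, 6.31 and 5.95 with tumor. The part of either in the Ldhb values was not tested.

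Ldha, whose subunit favours lactate production, read 8.53, 8.79 and 9.26 with tumor and 8.01, 8.33 and 7.80 without tumor in osteoblasts. These do not overlap, and the difference of 0.82 (0.32 to 1.31) had an adjusted p of 0.286. The highest value was replicate 3 of the tumor-bearing mice, and without it the difference was 0.62 (adjusted p = 0.424). Without osteoblast replicate 3 in both states it was 0.50 (adjusted p = 0.556). Endothelial arrays read 7.94, 7.91 and 8.35 without and 8.32, 7.98 and 8.52 with tumor and overlapped.

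The log2 ratio of Ldha to Ldhb within each array was 1.16, 1.69 and 1.89 in tumor-bearing osteoblasts, and -0.17, 0.63 and -0.21 in tumor-free osteoblasts. All 3 ratios with tumor exceeded all 3 without, a mean difference of 1.5, and the exact permutation test of 3 against 3 arrays gave p = 0.1, the smallest it can give. This pair was singled out after its values were seen. The ratio uses the brighter Ldhb probe set, which differed by -0.68 with tumor in osteoblasts, against -0.28 for the second. In endothelial cells the ratios were 0.88, 0.82 and 1.06 with tumor and 0.59, 0.70 and 1.15 without.

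**Figure D3:**
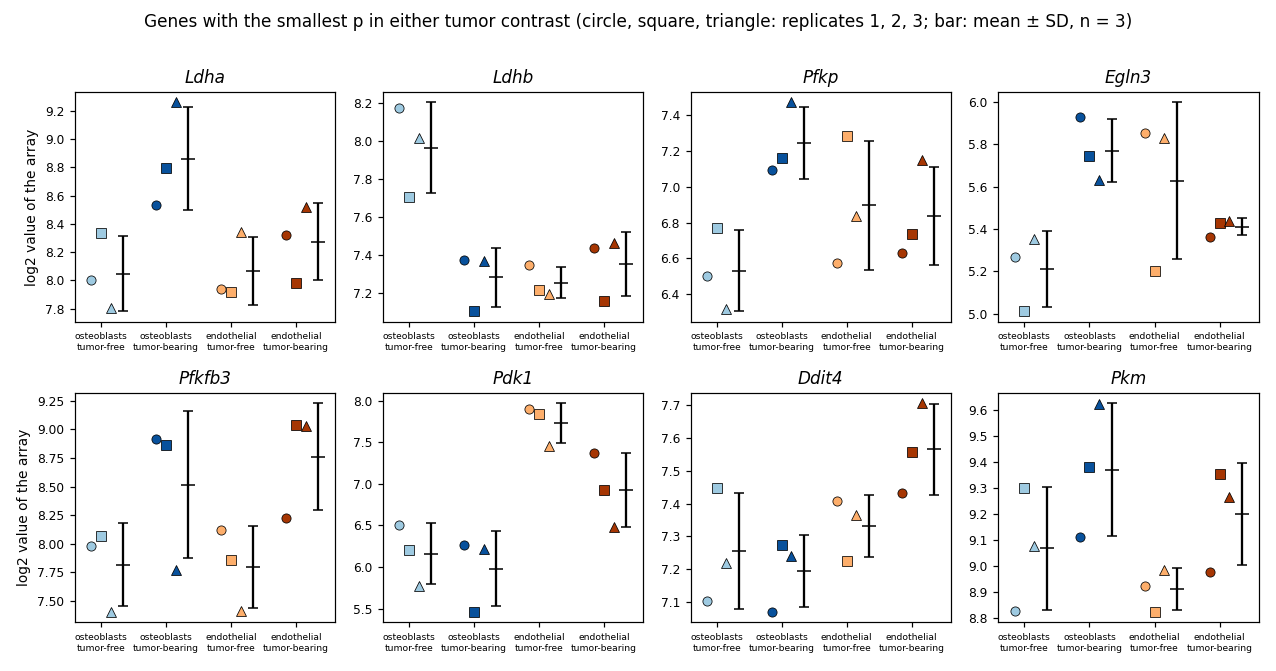
Log2 values on every array (points; circle, square and triangle are replicates 1, 2 and 3) with the mean ± SD of each group (bars, n = 3), for the 4 genes with the smallest p in osteoblasts (upper row) and in endothelial cells (lower row). Ldha, Pfkp and Egln3 do not overlap between tumor-free and tumor-bearing osteoblasts, nor does Ldhb, and Pdk1 and Pfkfb3 do not overlap between the endothelial groups.

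Pfkp, the platelet-type phosphofructokinase, read 7.10, 7.16 and 7.47 in tumor-bearing and 6.50, 6.77 and 6.32 in tumor-free osteoblasts, without overlap, a difference of 0.71 (adjusted p = 0.312). Leaving out replicate 3 of the tumor-bearing group made it 0.60 (adjusted p = 0.491). Egln3, a prolyl hydroxylase gene that HIF itself induces, read 5.93, 5.75 and 5.63 with tumor and 5.27, 5.01 and 5.35 without, a difference of 0.56 (adjusted p = 0.344) at levels under the array medians. Egln1, the main prolyl hydroxylase gene, differed by 0.50 and Kdm3a by 0.58. Epas1 (-0.53) and Car9, coding for a carbonic anhydrase (-0.38), had lower means with tumor, and Hif1a differed by 0.34. Slc2a1 at 0.53, Pgk1 at 0.48 and Pkm, pyruvate kinase, at 0.30 had positive values and overlapping arrays.

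In endothelial cells no gene passed either (limma, adjusted p), where 0.0141% of all genes did, and 2 had an unadjusted p under 0.05, beside 4.59%. The median change was 0.07 beside 0.01 over all genes, with 19 of 32 positive, beside 51.4% of all genes. Groups did not overlap for 3 genes, Pfkfb3 and Ddit4 above and Pdk1 below, beside 10.5% of all genes, 5.63% above and 4.87% below. Pdk1 read 7.37, 6.93 and 6.48 with and 7.90, 7.84 and 7.46 without tumor, a difference of -0.81 (-1.44 to -0.17, adjusted p = 0.956). Pfkfb3 makes the activator of phosphofructokinase and is known for its part in vessel sprouting. It read 8.22, 9.04 and 9.03 with and 8.12, 7.86 and 7.41 without tumor, a difference of 0.97 (0.20 to 1.73, adjusted p = 0.961). Replicate 1 of the tumor-bearing mice stood nearest to the controls in both genes.

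Ddit4 read 7.43, 7.56 and 7.71 with tumor and 7.41, 7.23 and 7.36 without tumor in endothelial cells, a difference of 0.23 (adjusted p = 0.9999) that just separated the groups. Pkm read 8.98, 9.35 and 9.26 with tumor and 8.92, 8.82 and 8.98 without, which overlapped, for a difference of 0.29 (adjusted p = 0.9999). Adm had the largest SD of the 32 genes in both endothelial groups, 7.79, 7.09 and 6.15 with and 6.94, 5.99 and 5.63 without tumor.

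**Figure D4:**
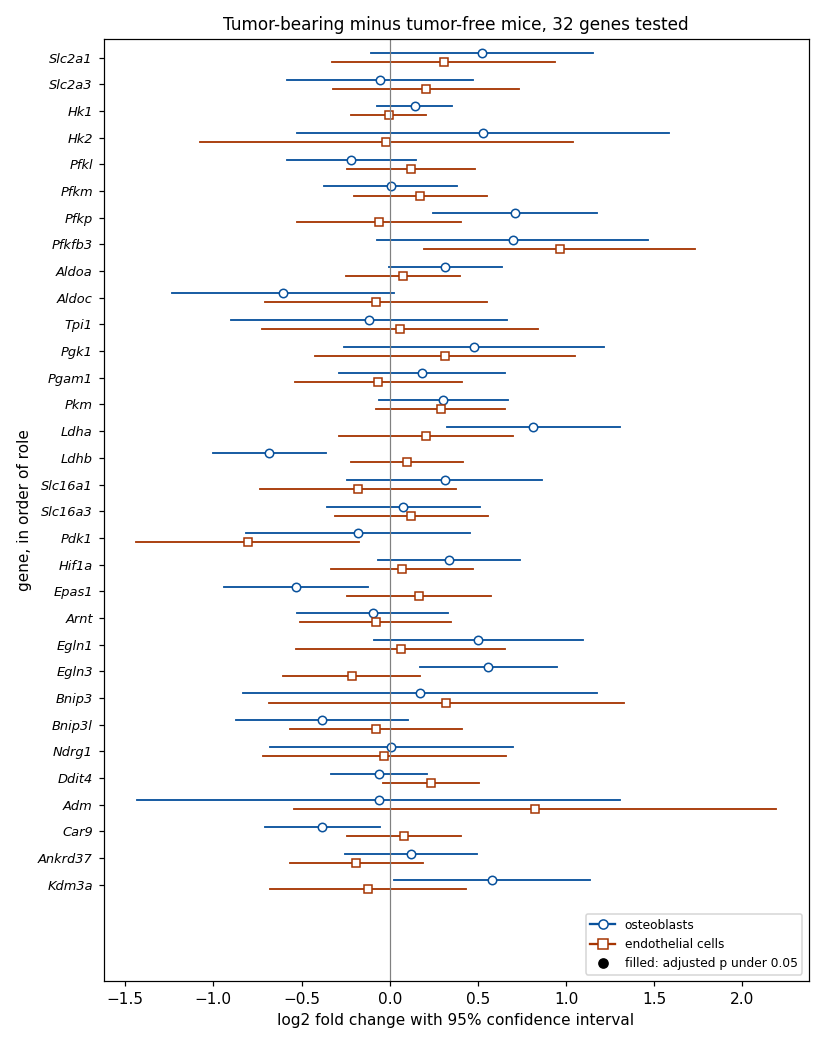
Log2 fold change, tumor-bearing minus tumor-free mice, of the 32 genes tested (horizontal axis) with its 95% confidence interval, in osteoblasts (circles) and endothelial cells (squares). No symbol is filled, since no gene passed an adjusted p of 0.05 in either cell type.

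Whether the change with tumor differed between the cell types was tested directly, and 0 of the 32 genes passed (limma interaction, adjusted p), beside 0.0281% of all genes, with 5 at an unadjusted p under 0.05 beside 6.47%. The smallest p belonged to Ldhb, whose change in osteoblasts minus that in endothelial cells was -0.78 (adjusted p = 0.45), followed by Egln3 at 0.77 (0.631). The 95% confidence intervals of the tumor differences lay wholly within 1 log2 unit of 0 for 20 genes in osteoblasts and 26 in endothelial cells, and for the other genes they reached past that size.

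The osteoblast arrays differed among themselves more than the endothelial ones. The median SD within a group over the genes tested was 0.35 in tumor-free osteoblasts and 0.25 in tumor-bearing osteoblasts, beside 0.21 and 0.18 over all genes, and was 0.23 and 0.18 in tumor-free and tumor-bearing endothelial cells, beside 0.16 and 0.18. Replicate 2 of the tumor-free osteoblasts was the highest of its group for 23 of the 32 genes (71.9%, beside 29.9% of all genes), and the highest of all 12 arrays for 8: Hk2, Aldoc, Tpi1, Pgam1, Arnt, Bnip3, Adm and Car9 (beside 8.56% of all genes). Hk2 read 5.82, 8.17 and 6.55 in that group, Bnip3 read 7.44, 9.20 and 7.09, and Adm read 5.65, 7.89 and 5.64. The second value of each is that array. Its chondrocyte marker median was 10.17, against 8.20 and 8.15 in the other arrays of its group. Replicates 1 and 2 of the tumor-bearing osteoblasts had similar medians of 9.75 and 10.04. Those 2 arrays read 7.60 and 7.61 for Hk2, 7.92 and 8.56 for Bnip3 and 6.62 and 6.34 for Adm. The part of cartilage transcripts in these values was not tested.

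Replicate 3 of the tumor-bearing osteoblasts was the highest of all 12 arrays for another 8 genes, Slc2a1, Pfkm, Pfkp, Aldoa, Pgk1, Pkm, Ldha and Egln1 (beside 10.7% of all genes). The Pgk1 difference with tumor was 0.48 with all arrays, 0.23 without that replicate and 0.87 without replicate 2 of the tumor-free osteoblasts. In that replicate Krt8, a keratin of simple epithelia singled out after its values were seen, read 10.13, against 6.78 to 7.54 on the other arrays, while Krt18, which pairs with it, read 5.77 and Epcam 5.35. The median of the mammary and epithelial markers was 5.60 there and 5.53 to 5.83 on the others, and none of the 8 tested passed with tumor in osteoblasts. Its median over the proliferation genes was also the highest, 7.90, and its median over the pan-haematopoietic markers was 6.81, against 5.59 to 5.93 in endothelial arrays. Replicate 3 of the tumor-free osteoblasts had 7.06 for the same markers and 8.60 for neutrophil markers, the highest of the 12. The part of these transcripts in the glycolytic values was not tested.

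**Figure D5:**
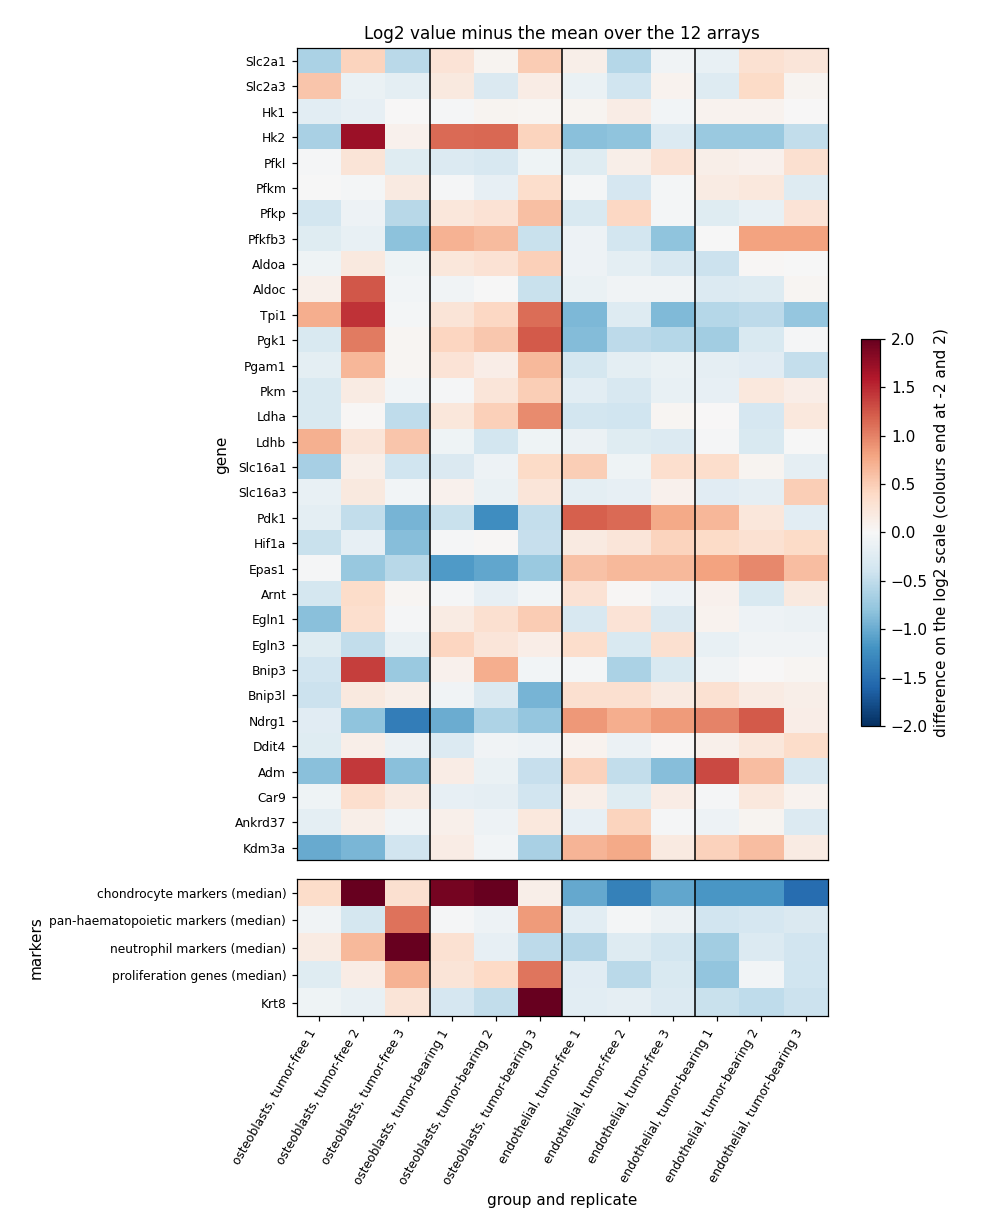
Log2 value of each of the 32 genes minus its mean over the 12 arrays (upper panel, colour, ending at -2 and 2), with the same for the medians of 4 marker lists and for Krt8 (lower panel). Columns are arrays by group and replicate. Replicate 2 of the tumor-free osteoblasts is red for Hk2, Tpi1, Bnip3 and Adm, and replicate 3 of the tumor-bearing osteoblasts is red for Pgk1, Ldha and Krt8.

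Related genes with the same role were compared within each array, since this removes what the pair shares. Of 11 pairs, none had a log2 ratio that differed between 6 osteoblast and 6 endothelial arrays after adjustment (exact stratified permutation test, two-sided, 400 arrangements, smallest possible p = 0.005). The smallest p was that of Hk1 to Hk2, where osteoblasts minus endothelial cells was -1.39 (exact permutation p = 0.01, adjusted p = 0.11) and the cell types overlapped. With the RefSeq-annotated Hk1 probe set the difference was -1.46. Hif1a to Epas1 differed by 0.78 (exact permutation p = 0.035, adjusted p = 0.128) and Bnip3 to Bnip3l by 0.81 (p = 0.035, adjusted p = 0.128). For Ldha to Ldhb the pooled difference of -0.04 averaged opposite signs. With tumor the mean ratio was 1.58 in osteoblasts and 0.92 in endothelial cells, without overlap, and without tumor it was 0.08 and 0.81, with overlap. These within-state differences were not tested.

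Further genes of these pathways also passed between the cell types. Among 27 other hypoxia response genes tested, 5 passed as higher and 2 as lower in osteoblasts of tumor-free mice, where 5.38% and 7% of all genes did. Vldlr, a lipoprotein receptor gene, differed by 4.29 (adjusted p = 1.3e-07), and Plod2, a collagen lysyl hydroxylase gene, by 3.53 (adjusted p = 0.000153). The others were the collagen prolyl hydroxylase genes P4ha2 (1.77) and P4ha1 (1.22) and the vascular growth factor gene Vegfa (0.80), while Stc1, coding for the hormone stanniocalcin (-1.91), and Hmox1, haem oxygenase (-1.08), were lower. In tumor-bearing mice 5 passed as higher and 1 as lower, beside 4.89% and 5.68% of all genes. Of the 27 genes, 20 had positive and 7 negative values in tumor-free mice, and 19 and 8 in tumor-bearing mice. Most of the 13 hypoxia genes chosen here had the opposite sign. Of 13 other glycolysis genes, Pgm2, a phosphoglucomutase gene, was lower in osteoblasts in both states (-1.52 and -1.72) and Eno3, the muscle enolase gene, was higher in tumor-free mice (0.57). That is 1 of 13 higher and 1 lower without tumor, and 0 higher and 1 lower with tumor, beside the same shares of all genes.

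Among 11 genes of pyruvate entry into mitochondria and of pyruvate dehydrogenase, Pdk4 (2.08) and Pdk3 (1.36) passed as higher in osteoblasts of tumor-bearing mice. None passed there as lower, beside 4.89% of all genes higher and 5.68% lower. In tumor-free mice none passed in either direction, beside 12.4% of all genes, and Pdk4 (0.96) and Pdk3 (0.76) had positive differences there too. These kinases act on the same complex as Pdk1, whose difference was negative. In the comparison of osteoblasts with and without tumor, 9 of these 11 genes had positive values (beside 46.7% of all genes), with a median of 0.42. The list mixes genes of opposite effect. Positive values belonged to the inhibiting kinases Pdk4 (1.24) and Pdk3 (0.44). They also belonged to the complex subunit gene Dld (0.75), the pyruvate dehydrogenase phosphatase gene Pdp1 (0.44) and the pyruvate carrier gene Mpc1 (0.42). The shared sign therefore gives no direction for the use of pyruvate. By limma 0 passed, and 3 had an unadjusted p under 0.05 (beside 9.78% of all genes). The 13 other glycolysis genes leaned the other way in this comparison, with 2 positive and 11 negative values and a median of -0.14. Of the 27 other hypoxia response genes, 17 had positive and 10 negative values. None of the genes in these lists, nor in lists of the pentose phosphate pathway and of oxidative phosphorylation, passed with tumor in either cell type by limma. Of the 75 genes tested in these 5 lists, 8 (10.7%) had an unadjusted p under 0.05 in osteoblasts, beside 9.78% of all genes, and 2 (2.67%) in endothelial cells, beside 4.59%.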

How the data were processed

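Per the labels' protocols, total RNA of 5000 sorted cells per sample was amplified (Ovation Pico WTA), labelled and hybridised. The authors deposited 1 table of log2 values for 34760 probe sets on 12 arrays. The submitters' processing notes name affy; how the arrays were normalized is not given in the sources used here. These values ran from 2.08 to 13.47. Probe sets were named from the platform annotation: 21640 carried 1 symbol, 1321 several and 11799 none.

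Per gene, the brightest single-symbol probe set by mean over the arrays was kept, and genes above the array's 40th percentile on at least 3 arrays were tested. limma 3.58.1 in R 4.3.3 was fitted with 1 coefficient per group on all 12 arrays, with empirical Bayes moderation, two-sided tests and Benjamini-Hochberg adjustment over all 14217 genes. The design had 5 contrasts and a threshold of 0.05. Precision is limited by the number of arrays. The fit was first tested on simulated data with known changes. For osteoblasts with against without tumor it recovered 16% of 50 changes of 0.5 log2 units and 50% of 50 changes of 1. Of changes of 2 and 3 it recovered 84% and 96%, and it also called 10 unchanged genes.

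The genes and the gene lists were chosen with earlier results of these data known. Values on every array were to be given for genes past the threshold in a tumor comparison or in both cell type contrasts, and for the 4 smallest p-values per tumor contrast. The array values of Hif1a, Kdm3a, Tpi1, Pgk1, Hk2, Bnip3 and Adm, the Ldha to Ldhb ratio with tumor, the leave-outs for Ldha, Pgk1 and Pfkp, the counts of highest arrays, the choice of Pgk1 for the plot of cell type genes and the marker rows of the plot of deviations were added after the values were seen. Alternatives changed the normalization, the dim-probe filter, the probe set rule, the variance model, array weights, the replicate block and the arrays in the fit.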

Additional observations from a re-analysis of the deposited data

How the results depend on the processing

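Each result was recomputed under up to 23 alternatives, of which the RefSeq-annotated probe sets and the fit without replicate 3 of both osteoblast groups were chosen after seeing the data. No gene passed with tumor in osteoblasts, in endothelial cells or in their difference under any of them. No isozyme ratio passed under any of the 17 run for it. With all arrays a single pair could not have passed that test, so the absence of calls there carries little weight. No result reversed. Osteoblasts against endothelial cells in tumor-free mice gave 5 to 8 genes, against 7. In tumor-bearing mice the count was 2, and it was 4 with a 60th percentile filter, 5 with array weights, 4 when only the groups compared were fitted and 2 to 6 when arrays were left out one at a time. With the replicate block it was 4, Pgk1 and Pdk1 being added. Tpi1 alone was added under quantile normalization and without replicate 3 of both osteoblast groups. Whether same-numbered samples belong together was not settled. Deviations of same-numbered arrays correlated at -0.05 to 0.07. Of the 6 arrays in each comparison, 2, 4, 3 and 0 correlated best with their own number. With 3 arrays per group these values cannot exclude shared mice. The causes of the changes in the count were not tested. With 3 arrays per group, the 95% confidence intervals with tumor reached a median of 0.48 log2 units to either side, so absence of a call does not show that these genes were unaffected.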

Other observations

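Among genes of neighbouring pathways, the pentose phosphate gene Pgd, coding for phosphogluconate dehydrogenase, was higher in osteoblasts than in endothelial cells in tumor-free mice by 0.84 (limma adjusted p = 0.00375) and in tumor-bearing mice by 0.90 (adjusted p = 0.0028). It was the 1 gene of the 6 tested in that pathway to pass in either state, beside 12.4% of all genes in tumor-free and 10.6% in tumor-bearing mice. Of 18 subunits of oxidative phosphorylation tested, 0 passed by limma between the cell types in either state, with 1 at an unadjusted p under 0.05 in tumor-free and 3 in tumor-bearing mice, beside 23.5% and 22.8% of all genes. Their median difference was 0.01 and 0.06.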
